A study of Mus musculus with 2 samples.

Results

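The S100 genes encode small calcium-binding proteins, and 9 of them were followed here in RNA-seq of primary mouse hepatocytes, namely S100a1, S100a4, S100a6, S100a8, S100a9, S100a10, S100a11, S100a13 and S100a16. They were chosen by name, through their RefSeq identifiers in the deposited mRNA table, out of 20317 genes with a symbol there, and the 12012 genes at 1 RPKM or more in either library were compared. All 9 members were above 1 RPKM in both libraries, each by a single transcript. RPKM is the number of reads scaled to transcript length and library size, so that levels of different genes can be compared per length. The hepatocytes came from wild-type male C57BL/6J mice, 5 weeks old at purchase by the study's methods, that had received intraperitoneal oil (the oil library) or 20% CCl4 in mineral oil at 2.5 ml CCl4 per kilogram with 2 injections per week (the CCl4 library). The labels give 8 weeks of injection and the methods 4 weeks. CCl4 is a solvent that liver cells convert into a toxic radical, and its repeated injection scars the liver. There was 1 library per condition, and the number of mice behind each is not given in the sources used here. No difference below therefore has a replicate check, and no p-value is given.

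S100 proteins carry a pair of EF-hands, the helix-loop-helix fold that holds calcium, and mostly work as dimers that dock onto other proteins once calcium is bound. S100a8 and S100a9 form a heterodimer, calprotectin, which is stored in bulk in the cytosol of neutrophils and, to a lesser degree, of monocytes. Released from such cells, it binds metal ions and is read as an alarm signal by Tlr4. S100a4, S100a6, S100a10 and S100a11 are found in fibroblasts, macrophages and epithelia, where they bind annexins, myosin and the cytoskeleton.

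In the oil library the members fell into a more abundant and a less abundant set. S100a10 (163 RPKM), S100a9 (163 RPKM), S100a8 (114 RPKM) and S100a1 (95.7 RPKM) were the abundant ones. S100a16 (21.5 RPKM), S100a13 (21.1 RPKM), S100a6 (20.5 RPKM), S100a4 (16.3 RPKM) and S100a11 (3.87 RPKM) followed. Each of the 4 abundant members was lower in the CCl4 library, and each of the 5 others was higher there, so that the highest level was 42.2 times the lowest with oil and 10.5 times with CCl4. The summed level of all 9 members was 619.8 RPKM with oil and 512.2 RPKM with CCl4.

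**Figure D1:**
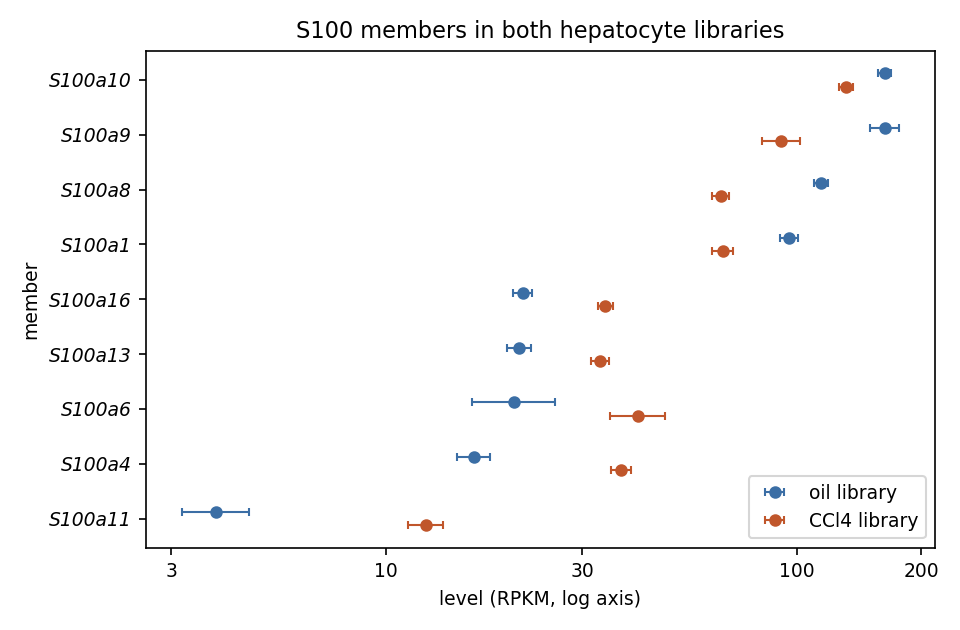
Level of each member in the oil and the CCl4 library in RPKM on a log axis, with 95% exact Poisson intervals that cover counting error only. The 4 members at 95.7 RPKM or more in the oil library sit lower in the CCl4 library, and the 5 members at 21.5 RPKM or less sit higher.

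Counting error was small beside most of these gaps. The reads behind each value were recovered from the steps between RPKM values and are lower bounds. They ran from 75 reads for S100a6 to 3077 for S100a10 in the oil library. Were all reads separate molecules, the intervals would be at least as wide as counting error makes them. Reads copied by PCR are not allowed for. The order within the sets was less certain. The fewest recovered reads were those of S100a6, at least 75 with oil and 167 with CCl4. Its intervals may thus be wider than its counting error, and their overlaps cannot decide its place. In the oil library the interval of S100a10 (158 to 169 RPKM) overlapped that of S100a9 (150 to 177 RPKM), and S100a16, S100a13, S100a6 and S100a4 could not be ordered from neighbour to neighbour. In the CCl4 library S100a1 (65.9 RPKM) and S100a8 (65.2 RPKM) could not be ordered, nor could S100a6, S100a4, S100a16 and S100a13 from neighbour to neighbour, while S100a11 was the lowest in both libraries by non-overlapping intervals.

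S100a8 and S100a9, the calprotectin subunits, were both lower in the CCl4 library. S100a8 was at 114 RPKM (interval 110 to 119) with oil and 65.2 RPKM (interval 62.1 to 68.4) with CCl4, a log2 fold change of -0.81 with 0.1 RPKM added to both values. S100a9 went from 163 RPKM to 91.5 RPKM, a log2 fold change of -0.83. Without the added value, counting error places the log2 ratio between -0.90 and -0.72 for S100a8 and between -1.03 and -0.64 for S100a9. The 2 subunits kept nearly the same proportion. There were 0.701 units of S100a8 per unit of S100a9 with oil and 0.712 with CCl4, and the log2 change of that ratio was 0.022 with a counting interval of -0.19 to 0.23. In a bulk library, fewer cells that carry these transcripts and less of them per cell cannot be told apart.

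The genes of both subunits lie beside each other on chromosome 3 with no other annotated gene between them, S100a8 at chr3:90669071-90670034 and S100a9 at chr3:90692630-90695721 (GRCm38.p6, the assembly that mm10 names), 22.6 kb apart and on opposite strands. Their RefSeq promoter windows, 250 bases before to 50 bases after the annotated start, are shown because both subunits were lower by similar amounts, S100a8 from chr3:90668821-90669120 on the plus strand and S100a9 from chr3:90695672-90695971 on the minus strand. Capitals mark matches, on either strand, to 4 motifs that were searched in every window. The first is TATAAA, the TATA box. The second is TTGCNNAA, a pattern of the C/EBP type. The third is TGANTCA, of the AP-1 type. The fourth is GAGGAA, of the ETS type. In S100a8 a match to the ETS pattern on the other strand runs straight into the TATA box.
S100a8: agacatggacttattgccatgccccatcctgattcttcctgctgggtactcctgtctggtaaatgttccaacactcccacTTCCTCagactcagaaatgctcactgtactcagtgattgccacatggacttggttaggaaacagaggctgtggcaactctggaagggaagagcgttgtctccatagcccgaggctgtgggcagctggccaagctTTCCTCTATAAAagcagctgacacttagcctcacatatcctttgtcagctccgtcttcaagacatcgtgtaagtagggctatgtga
S100a9: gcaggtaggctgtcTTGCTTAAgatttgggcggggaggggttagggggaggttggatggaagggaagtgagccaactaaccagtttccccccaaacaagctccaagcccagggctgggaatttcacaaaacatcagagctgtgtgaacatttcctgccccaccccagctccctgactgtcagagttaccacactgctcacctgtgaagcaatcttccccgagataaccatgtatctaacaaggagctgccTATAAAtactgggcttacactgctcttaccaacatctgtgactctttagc
Both windows hold TATAAA, which begins 30 bases before the annotated start of S100a8 and at the annotated start base itself in S100a9. Over all 32851 promoter windows of this length, TATAAA was present in 13.6%, TTGCNNAA in 10.8%, TGANTCA in 7.81% and GAGGAA in 28.3%. S100a8 has 2 matches to GAGGAA and S100a9 has 1 match to TTGCNNAA. These matches are descriptions of letters and not of binding.

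S100a1 and S100a10, which are not named for neutrophils, were also lower in the CCl4 library. S100a1, a calcium sensor best known from heart and skeletal muscle, was at 95.7 RPKM with oil and 65.9 RPKM with CCl4, and its log2 fold change was -0.54 with a counting interval of -0.65 to -0.42. S100a10, also called p11, has lost calcium binding and works as a subunit of a complex with annexin A2. It was at 163 RPKM and 131 RPKM, a log2 fold change of -0.31 with a counting interval of -0.39 to -0.24. With CCl4 S100a10 was the most abundant member by intervals that do not overlap. It was 1.43 times the level of S100a8 with oil and 2.02 times with CCl4.

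The largest differences in the other direction were those of S100a11 and S100a4. S100a11, a partner of annexin A1, was at 3.87 RPKM (interval 3.19 to 4.65) with oil and 12.5 RPKM (interval 11.3 to 13.8) with CCl4, which is 3.17-fold higher and a log2 fold change of 1.67. S100a4, also known as fibroblast-specific protein and a binder of non-muscle myosin, was at 16.3 RPKM and 37.3 RPKM, its log2 fold change being 1.19 with a counting interval of 1.04 to 1.35. S100a6, calcyclin, was at 20.5 RPKM and 41.0 RPKM, and its log2 fold change of 0.99 lay just under the value of 1 used as a call, with a counting interval of 0.60 to 1.41. An annotated pseudogene, S100a11-ps, lies on chromosome 12, and how reads that match both copies were counted is not given in the sources used here. The promoter windows of the 2 called members are shown with the same motifs in capitals, S100a4 from chr3:90603520-90603819 and S100a11 from chr3:93520246-93520545, both on the plus strand.
S100a4: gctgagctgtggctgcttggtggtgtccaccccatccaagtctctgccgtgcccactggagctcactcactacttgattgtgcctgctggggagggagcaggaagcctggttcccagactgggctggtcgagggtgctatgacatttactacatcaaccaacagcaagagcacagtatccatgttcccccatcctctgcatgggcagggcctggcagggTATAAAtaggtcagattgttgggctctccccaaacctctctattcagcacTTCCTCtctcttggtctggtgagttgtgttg
S100a11: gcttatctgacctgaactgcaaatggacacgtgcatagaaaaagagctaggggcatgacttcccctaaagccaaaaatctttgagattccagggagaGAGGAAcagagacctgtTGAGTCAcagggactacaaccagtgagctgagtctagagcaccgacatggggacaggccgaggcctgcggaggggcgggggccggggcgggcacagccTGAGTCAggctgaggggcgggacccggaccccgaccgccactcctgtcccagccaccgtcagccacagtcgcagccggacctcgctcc
The S100a4 window holds TATAAA beginning 31 bases before the annotated start, and the S100a11 window holds none and has 2 matches to TGANTCA. That AP-1 pattern was absent from the windows of S100a8, S100a9, S100a4, S100a6, S100a1 and S100a13 and occurred once in 1 of the 2 windows of S100a16. S100a10 has no window in the table, so 8 of the 9 members were searched.

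S100a13 and S100a16 were higher by similar amounts. S100a13, which takes part in the unconventional export of Fgf1 and Il1a, was at 21.1 RPKM with oil and 33.2 RPKM with CCl4, a log2 difference of 0.65. S100a16, a broadly expressed member, was at 21.5 RPKM and 34.2 RPKM, and its log2 fold change was 0.66. Counting intervals of their log2 ratios ran from 0.53 to 0.78 and from 0.57 to 0.77. S100a13 was 0.981 of the level of S100a16 with oil and 0.972 with CCl4.

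**Figure D2:**
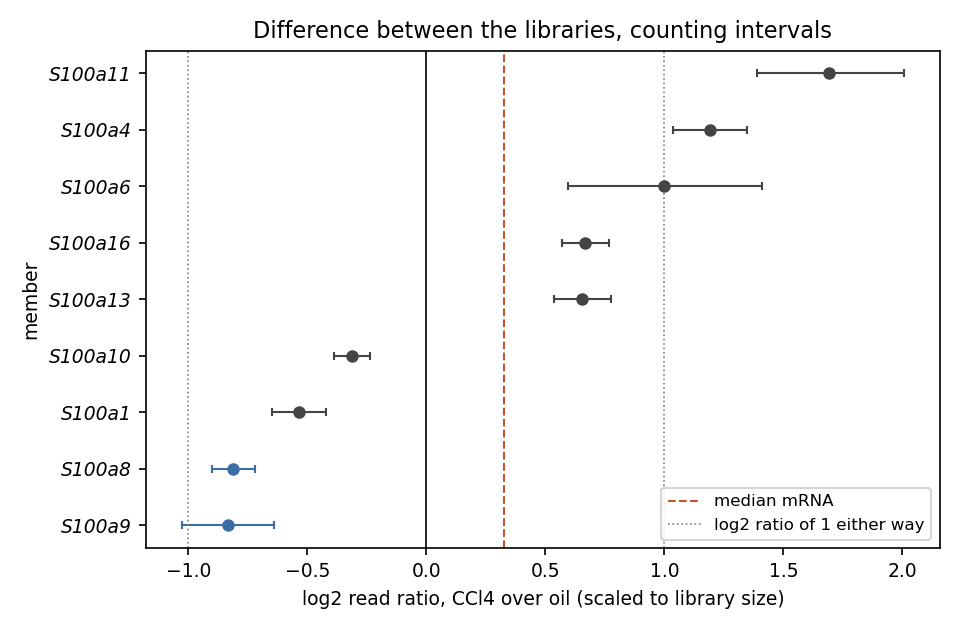
Log2 ratio of reads in the CCl4 over the oil library, scaled to library size with nothing added, with 95% Clopper-Pearson intervals that cover counting error only. S100a8 and S100a9 (blue) are at -0.81 and -0.83, no interval crosses 0, and the dashed line marks the median mRNA at 0.33.

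Across mRNA transcripts detected under both treatments, the median log2 shift towards CCl4 was 0.33, and this shift is contained in the fold changes above. Scaled to that median, every member kept its direction. S100a8 was then at -1.14, S100a9 at -1.16, S100a1 at -0.86 and S100a10 at -0.64. The others were at 1.35 for S100a11, 0.86 for S100a4, 0.67 for S100a6, 0.34 for S100a16 and 0.33 for S100a13.

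With a call wherever log2 fold change reached 1 in size, 2 of the 9 members were higher in the CCl4 library, S100a4 and S100a11, beside 19.3% of all genes compared. None was lower, beside 5.68% of all genes. A share of 2 in 9 is near that background and is no result about the family. After scaling to the median mRNA, S100a11 alone was called higher, beside 11.8% of all genes, and S100a8 and S100a9 were called lower, beside 9.97%. The median log2 fold change of the 9 members was 0.65, and that of all genes compared was 0.37.

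Set against the rest of the family, the neutrophil pair stood at the low end. The mean log2 fold change of S100a8 and S100a9 differed from the median of the other 7 members by -1.49, with a counting interval of -1.63 to -1.34. Both lay under every other member, at percentiles 8.06 and 7.70 of all genes by log2 fold change, with S100a1 at 12.6 and S100a10 at 17.9. The counting interval of S100a9 (-1.03 to -0.64) overlapped that of S100a1 (-0.65 to -0.42), the nearest member. That of S100a8 (-0.90 to -0.72) did not. At the high end S100a11 was at percentile 93.5 and S100a4 at 85.6. The pair held 44.8% of the summed S100 level with oil and 30.6% with CCl4. Its own sum was 277.5 RPKM and 156.7 RPKM, whereas that of the other 7 members was 342.3 RPKM and 355.5 RPKM.

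Because the abundant members were the lower ones, genes of like abundance were looked at, a comparison chosen after the members' values were seen. Of 257 genes with a mean level from 80.8 to 147 RPKM, the range of the 4 abundant members, 62.3% were lower in the CCl4 library and the median log2 fold change was -0.36. Of 3387 genes from 8.18 to 30.8 RPKM, the range of the 5 others, 64.3% were higher and the median was 0.23. Of all 12012 genes compared, 69.8% were higher and the median was 0.37, and these include the genes of both level ranges.

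All 9 members lie on chromosome 3. From S100a1 to S100a9, 7 of them occupy 185 kb, and S100a11 and S100a10 follow 2851 kb and 2886 kb from the start of S100a8. Along this stretch, S100a1 at one end was lower, the next members S100a13, S100a16, S100a4 (chr3:90603770-90606045) and S100a6 (chr3:90612894-90614414) were all higher, and S100a8 and S100a9 at the other end were both lower. S100a14, S100a3, S100a2, S100a5 and S100a7a, which lie among them, were listed at 0 in both libraries and have no fold change. Outside the stretch, S100a11 and S100a10 are 28.8 kb apart and differed in opposite directions. Within it, so did S100a1 (chr3:90511034-90514330, minus strand) and S100a13 (chr3:90514233-90524581, plus strand), which start head to head and overlap by 98 bases. The ratio of S100a1 to S100a13 was 4.53 with oil and 1.98 with CCl4. Whether reads were counted by strand is not given in the sources used here, so reads from the shared 98 bases may have gone to either gene. The S100a13 window (chr3:90514185-90514484, plus strand) is shown because 204 of its bases also lie in the S100a1 window, and none of the 4 motifs was found in either.
S100a13: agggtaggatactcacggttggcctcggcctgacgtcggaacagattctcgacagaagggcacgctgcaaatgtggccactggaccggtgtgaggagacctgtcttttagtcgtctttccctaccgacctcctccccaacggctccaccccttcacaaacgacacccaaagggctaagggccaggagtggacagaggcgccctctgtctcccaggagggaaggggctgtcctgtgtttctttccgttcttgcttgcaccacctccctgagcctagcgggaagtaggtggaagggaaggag

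**Figure D3:**
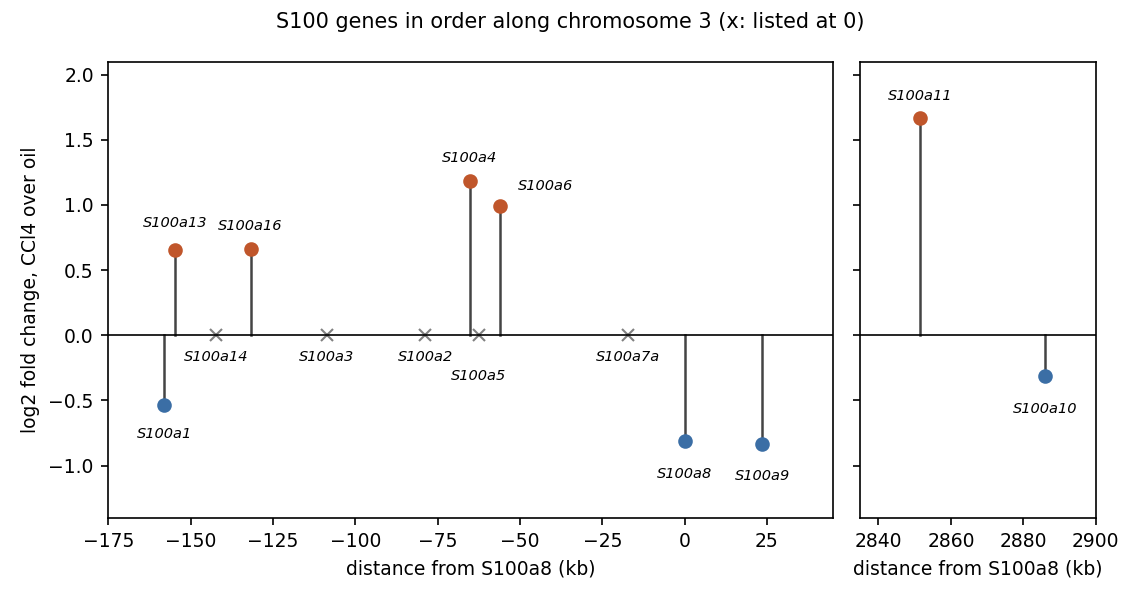
Log2 fold change of S100 genes against the distance of their first base from that of S100a8 in kb, with the 2 distant members in a panel of their own. Orange points are higher with CCl4, blue points lower, and crosses mark genes listed at 0 in both libraries. S100a8 and S100a9 point down beside each other, whereas S100a1 and S100a13 point in opposite directions.

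Other genes of the family were at or near the lower limit of the table. Of 11 further S100 names looked up, 9 were in the table, and S100a2, S100a3, S100a5, S100a7a, S100a7l2, S100a14, S100b and S100z were listed at 0 in both libraries, which means under 1 RPKM. S100g, a vitamin D-dependent calcium buffer of the gut, was listed at 0 with oil and at 1.22 RPKM with CCl4. It lies within the gene Ctps2 on the X chromosome, and no fold change is given for it.

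Markers of the cells that carry S100 proteins were read from the same libraries. The labels call the samples hepatocytes, and Alb, the gene for serum albumin, was at 8656 RPKM with oil and 6476 RPKM with CCl4. Of the 12 hepatocyte genes listed, 8 were lower by a log2 fold change of 1 or more and 0 were higher, beside 5.68% and 19.3% of all genes. Their median was -1.43 and their summed level 22092 and 11700 RPKM. After scaling to the median mRNA 11 were lower and 0 higher, beside 9.97% and 11.8% of all genes, and the median was -1.76. The cells were isolated by enzyme perfusion of the liver and a density gradient, which separates hepatocytes from smaller cells, and the methods name a purity check by qRT-PCR of cell markers. In these libraries transcripts of other liver cells were present under both treatments, and their part in the S100 differences was not tested.

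Neutrophil genes did not move as one with S100a8 and S100a9. Of 16 listed, 15 were compared (Ly6g was not analysed here), 5 were lower and 2 higher by at least 1, beside 5.68% and 19.3% of all genes. The median log2 fold change was -0.21, with 9 genes below 0 and 6 above. After scaling to the median mRNA 6 were lower and 1 higher, beside 9.97% and 11.8% of all genes, and the median was -0.53. Values listed at 0 in 1 library were restored for these counts as given under the methods. The lower ones included genes of the primary granules, the proteases Prtn3 (7.96 to 1.98 RPKM) and Elane (2.74 to 1.04 RPKM) and the peroxidase Mpo (3.11 RPKM, then listed at 0), together with the chemokine receptor Cxcr2 (2.85 to 1.14 RPKM) and Il1r2, a decoy receptor (2.17 RPKM, then listed at 0). The higher ones were Retnlg, a resistin-like gene of neutrophils (17.0 to 48.7 RPKM, log2 fold change 1.51), and Clec4d, a lectin receptor (2.48 to 6.27 RPKM). The others included the granule genes Camp at 7.17 and 6.71 RPKM, Ngp at 8.05 and 6.42 RPKM, Ltf at 3.35 and 2.88 RPKM, Mmp8 at 2.92 and 1.66 RPKM and Mmp9 at 2.49 and 3.59 RPKM. They also included Csf3r at 3.72 and 6.17 RPKM, Fpr1 at 13.8 and 16.9 RPKM and Fpr2 at 3.54 and 4.45 RPKM. The summed level of the list was 83.4 RPKM with oil and 109.6 RPKM with CCl4, and without Retnlg it was 66.4 and 60.9 RPKM. S100a8 and S100a9 alone were thus above the sum of the other 15 neutrophil genes in both libraries.

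The counts in the other lists are to be read beside 19.3% of all genes higher and 5.68% lower by at least 1, and the part of these cells in the S100 differences was not tested. After scaling to the median mRNA those shares are 11.8% and 9.97%. In the monocyte and infiltrating macrophage list 11 of 15 genes were higher by at least 1 and 0 lower, with a median of 1.64 and a summed level of 508.1 and 2470 RPKM, and after scaling 8 were higher and 1 lower. Among them were Lyz2, lysozyme (321 to 1645 RPKM), Lgals3, galectin-3 (19.2 to 160.6 RPKM), and Gpnmb, a glycoprotein of lipid-laden macrophages (1.19 to 217 RPKM). Ms4a7 was listed at 0 with oil and at 13.7 RPKM with CCl4. Ly6c2, which marks inflammatory monocytes, was at 17.7 and 10.8 RPKM, and Chil3 and F13a1 had log2 fold changes of -0.56 and -0.13. All 14 stellate cell and myofibroblast genes were higher, with a median of 3.21 and a sum of 86.0 and 948.6 RPKM, and Pdgfrb, Ngfr and Lox were listed at 0 in the oil library. After scaling 13 of the 14 were higher. In the Kupffer cell list 6 of 10 were higher and 0 lower (median 1.12, sum 1445 and 2994 RPKM), and after scaling 2 of 10 were higher (median 0.79), while Clec4f, the most specific of them, was at 282.6 and 254.5 RPKM.

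In the lists of sinusoidal endothelial, mesothelial and T and NK cells the share of higher genes was near that of all genes or rested on 1 or 2 genes. Of 10 sinusoidal endothelial genes, 2 were higher and 0 lower (median 0.76, sum 635.2 and 1097 RPKM), and after scaling to the median mRNA 0 were (median 0.44). In the bile duct list Sox9, Cldn7, Sctr and Cftr were listed at 0 in both libraries, and of the 4 genes compared Krt19, a keratin of these ducts, was higher by at least 1 (8.86 and 17.8 RPKM), with a median of 0.68, or 0.37 with 0 genes called after that scaling, and a sum of 14.5 and 26.9 RPKM. Of 6 mesothelial genes, 2 were higher (median 0.91, and 0.59 with 1 gene higher after that scaling, sum 43.6 and 73.1 RPKM). The 2 were Wt1, listed at 0 in the oil library, and Krt19, which is counted in the bile duct list too. The 4 B cell genes compared were all higher (median 1.62, sum 6.50 and 21.5 RPKM), with Ms4a1 listed at 0 with oil and Pax5 at 0 in both. Their median was 3.14 with values listed at 0 taken as 0 and 1.22 with 1 RPKM added. Of the 6 T and NK cell genes compared, 1 was higher (median -0.58, and -0.88 with 1 gene higher and 1 lower after that scaling, sum 13.2 and 11.4 RPKM), and Cd3e and Cd8a were listed at 0 in both, Il7r with oil, and Cd3d and Klrb1c with CCl4. Of the 7 erythroid genes 4 were lower (median -1.07, sum 3207 and 2152 RPKM), with Slc4a1 listed at 0 with CCl4.

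**Figure D4:**
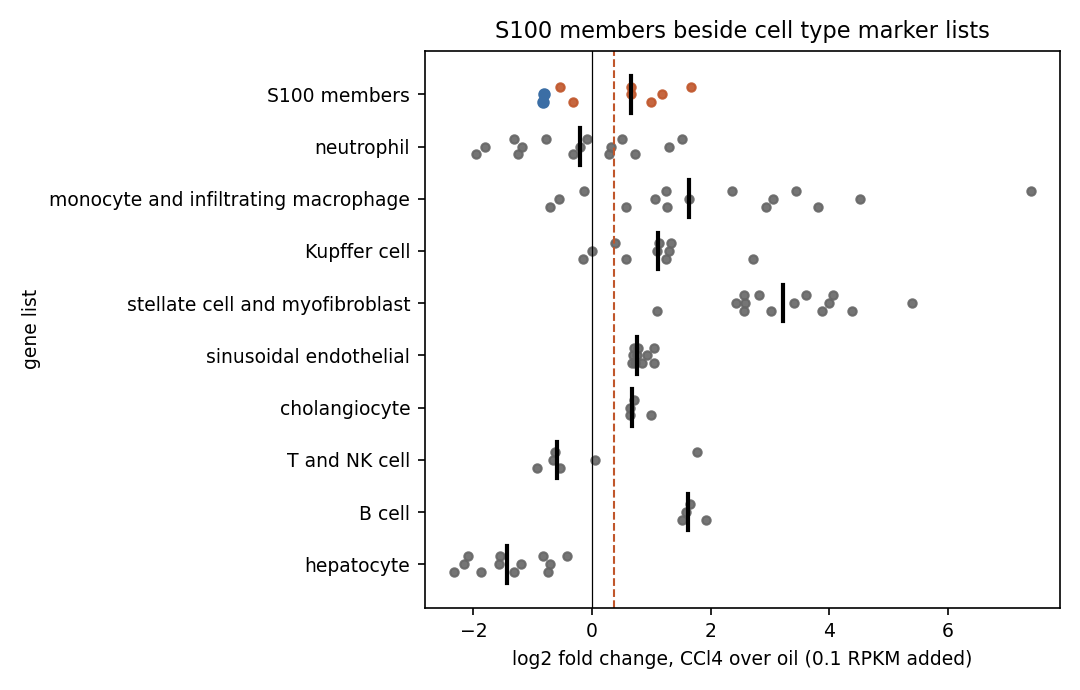
Log2 fold change of each gene, CCl4 over oil with 0.1 RPKM added, for the S100 members (S100a8 and S100a9 in blue, the others in orange) and most of the marker lists (grey). Black bars are list medians, the dashed line is the median of all genes compared (0.37). The neutrophil genes straddle 0 with a median of -0.21, and all stellate cell and myofibroblast genes lie above 1.

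The partners that S100 proteins bind differed from their S100 genes in several cases. Of 15 partner genes compared, 6 were higher and 2 lower by at least 1, beside 19.3% and 5.68% of all genes, and their median was 0.73 beside 0.37. After scaling to the median mRNA 3 were higher and 2 lower, beside 11.8% and 9.97%, and the median was 0.41. Anxa2, which holds S100a10 at the plasma membrane, was at 29.8 RPKM with oil and 86.8 RPKM with CCl4, a log2 fold change of 1.54, whereas S100a10 was at -0.31. The level of S100a10 was above that of Anxa2 in both libraries. Ahnak, a giant scaffold protein bound by that complex, was at 18.3 and 43.3 RPKM. Plasminogen (Plg), which the S100a10 and annexin A2 complex captures at the cell surface, was at 346.5 and 157.7 RPKM, and its activator Plat was listed at 0 and at 6.89 RPKM.

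Anxa1, the partner of S100a11, was at 31.3 RPKM with CCl4, and its log2 fold change of 1.50 stood beside 1.67 for S100a11. Myh9, the non-muscle myosin heavy chain bound by S100a4, was at 43.4 and 78.7 RPKM, with a log2 fold change of 0.86 beside 1.19. Cacybp, named for its binding to S100a6, was at 9.38 and 6.73 RPKM, and Sugt1, another S100a6 partner, at 8.93 and 11.2 RPKM. Of the cargo released with S100a13, Fgf1 was at 16.5 and 6.08 RPKM (log2 fold change -1.43) and Il1a at 4.68 and 10.1 RPKM (log2 fold change 1.09). The cargo genes thus differed in opposite directions while S100a13 was at 0.65. Anxa5 was at 37.7 and 82.4 RPKM and Anxa6 at 35.3 and 37.1 RPKM.

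**Figure D5:**
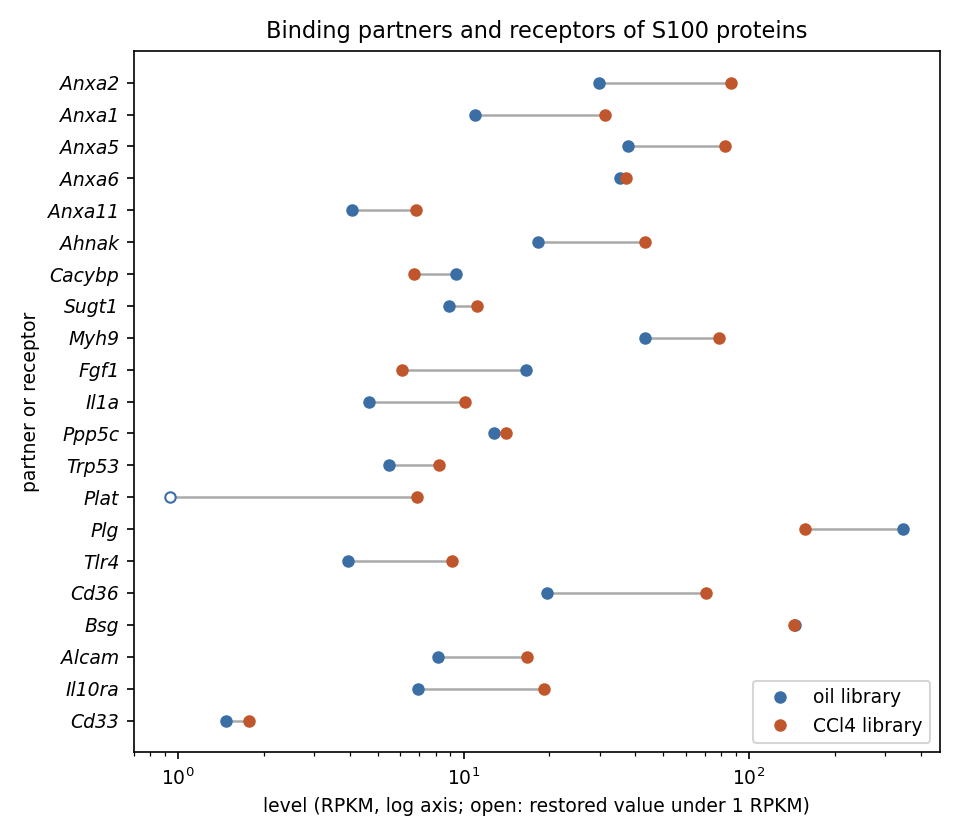
Level of binding partners and receptors of S100 proteins in the oil (blue) and the CCl4 (orange) library in RPKM on a log axis, where the open point is a value under 1 RPKM restored as described under the methods. Anxa2 and Anxa1 lie further right in the CCl4 library, and Fgf1, Plg and Cacybp further left.

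Receptors for secreted S100 proteins were read next. Ager, the receptor RAGE, was listed at 0 in both libraries. Tlr4, which senses S100a8 and S100a9, was at 3.93 and 9.13 RPKM, and Cd36, a scavenger receptor that takes up fatty acids carried by that pair, was at 19.7 and 70.6 RPKM (log2 fold change 1.84). Bsg, also called CD147, was the most abundant receptor and stood at 144.5 and 143.9 RPKM, with a counting interval of -0.078 to 0.066 for its log2 ratio. Of the 6 receptor genes compared, 4 were higher by at least 1, Tlr4, Cd36, Alcam and Il10ra, and 0 lower, beside 19.3% and 5.68% of all genes. After scaling to the median mRNA 2 were, Cd36 and Il10ra, beside 11.8%. Most of the monocyte and macrophage list (11 of 15 genes) was higher by at least 1 as well, and its part in the receptor levels was not tested. Downstream of Tlr4, Myd88 was at 12.3 and 15.6 RPKM and Rela at 11.5 and 13.2 RPKM. Of the phagocyte NADPH oxidase, an enzyme that S100a8 and S100a9 help to assemble, these subunits were higher by at least 1, Cyba at 54.5 and 179 RPKM, Cybb at 16.6 and 46.1 RPKM and Ncf1 at 13.5 and 30.5 RPKM, of which Ncf1 was under 1 after that scaling. They differed in the opposite direction to S100a8 and S100a9.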

How the data were processed

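RNA-seq of 2 hepatocyte libraries, 1 oil and 1 CCl4, was analysed from the deposited tables. The submitters' processing notes name CASAVA 1.4, TopHat2 and the build mm10. The counting program and annotation version are not given in the sources used here. The authors deposited RPKM values in which those under 1 are listed as 0. They also deposited their log2 change, p-values and q-values. The log2 column served only to restore 1822 values listed at 0 from the other library, and 3 restored values of 0.5 RPKM, read as stand-ins, were set to 0. None of the members needed this. The p-values were not used. Deposited read counts of new lncRNAs served for 1 observation.

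A GRCm38.p6 gene table gave symbols for 27049 of 27457 RefSeq transcripts, and a gene was taken as its transcript with the highest mean RPKM. Promoter windows are from RefSeq, GRCm38.p6. The steps between RPKM values of genes shorter than 400 bases gave library totals of 57992574 reads for oil (whole reads in 204 of 212 genes, within 0.03) and 64655549 for CCl4 (215 of 223). For each gene the shortest length from 50 to 30000 bases with whole reads in both libraries gave its reads, which are lower bounds. The 95% intervals hold counting error alone, because reads copied by PCR need not be separate molecules. Recovery and intervals were tested on simulated data. The planned test was a description without p-values, as there is 1 library per group. Named genes are the members and genes of the lists. Some list genes are not reported here by name. Members and lists were chosen with earlier results of these data known. Other pseudocounts, scalings, filters and thresholds were tried. Python 3.11.15, numpy 2.4.6, pandas 2.3.3, scipy 1.17.1 and matplotlib 3.10.9 were used.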

Additional observations from a re-analysis of the deposited data

How the results depend on the processing

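The mean of S100a8 and S100a9 differed from the median of the other members by -1.49 to -1.46 over the alternatives that were run. Rescaling the libraries shifts every member nearly alike and so cancels in this difference by construction. Only the amount added to the values could move it, so the narrow range is no check of the difference. The count of members called higher was 2 in the main setting, 1 with scaling to the median mRNA and 0 with the call set at a log2 size of 2, and the count called lower was 0, 2 with scaling to the median mRNA. The cause of the change with scaling is its construction, a shift of 0.33, and the stricter threshold lowers counts by construction. Of 63 member fold changes under alternatives, 55 stayed within the counting interval, 8 moved and 0 changed sign. All 8 moves came with scaling to the median mRNA. S100a6 shifted there as the others did, from 0.99 to 0.67. It stayed within its interval only because that interval, from the fewest recovered reads, is the widest. Taking values listed at 0 as 0 and summing transcripts could not alter a member or the shares of the summed level, since no member is listed at 0 and each has 1 transcript. Of 66 list medians, 56 stayed close, 10 moved and 0 changed sign. Entering every gene with a listed value above 0 takes in the same genes as the filter at 1 RPKM, because the smallest value listed is 1.00035 RPKM, so this alternative has no value of its own. The log2 ratio of recovered reads and the counts of list genes after scaling to the median mRNA were added after seeing the data. No paired analysis was possible because each condition has 1 library without a replicate number. No library could be left out for the same reason, and preparation and treatment cannot be told apart.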

Other observations

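One lncRNA absent from the annotation, TCONS_00053398, lies within 100 kb of the S100 genes on chromosome 3, at chr3:90495174-90496766 (mm10, plus strand), 14.3 kb before S100a1 and 1773 bases from the gene Chtop. It had 22 reads with oil and 38 with CCl4, or 0.221 and 0.336 RPKM. The log2 ratio of 0.60, scaled to library totals of 62438202 and 70960847 reads, has a counting interval of -0.19 to 1.43, so a difference was not detectable at this depth. These totals go with the values of new lncRNAs. They differ from the 57992574 and 64655549 reads given under the methods, and the reason is not given in the sources used here.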
